A study of Mus musculus with 9 samples.

Results

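The receptors for most interleukins and for the interferons carry no enzyme of their own. They are assembled from chains that bind the cytokine and chains that are shared between receptors, and the chains bring JAK kinases together, which phosphorylate STAT transcription factors. Among the receptors described here that of IL-17 differs, since it signals through the adaptor Act1 instead of a JAK. In macrophages the chains present on the surface set which of the T cell, stromal and macrophage cytokines the cell can answer. The 10 genes described here encode chains of 5 receptor systems: Il4ra, Il13ra1 and Il2rg for IL-4 and IL-13, Il6ra and Il6st for IL-6, Il10ra and Il10rb for IL-10, Il17ra for IL-17, and Ifngr1 and Ifngr2 for interferon gamma. They were taken by gene symbol from the 53465 genes of the count table, and were chosen with earlier results of these data known. All 10 were among the 11950 genes with enough reads to be tested.

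The RNA came from bone marrow-derived macrophages (BMDMs), cells grown out of the marrow of male wild-type C57BL/6 mice (C57bl6/J in the study's methods) over 5 to 10 days in 50 ng/ml CSF1, the growth factor that drives marrow progenitors into macrophages. There were 3 groups of 3 libraries. UNX cells were left untreated, CO-CM cells received medium conditioned by pulmonary artery adventitial fibroblasts of control calves, and PH-CM cells received medium conditioned by the same kind of fibroblast from calves with hypoxia-induced pulmonary hypertension. For the exposure the labels give both 16 h and 24 h, and the study's methods give a single time between them. All 3 groups were wild type, and UNX received no conditioned medium at all, so a difference from UNX takes in everything that came with that medium. By the study's methods the fibroblasts were grown with bovine calf serum, and fetal bovine serum was added to their medium before use. CSF1 is not named for the exposure. Against UNX, fibroblast products, serum and any change in CSF1 therefore cannot be told apart. PH-CM against CO-CM compares the media of diseased and control donors. Each conditioned medium was a pool from several fibroblast populations, so the spread between libraries does not include the spread between calves. For the same reason an effect of disease cannot be told apart from a difference between the pools. Nothing in the labels ties a replicate number to a mouse, and the p-values measure only the spread between these libraries.

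The libraries held 62017933 to 84314201 reads counted on genes. All 8 macrophage markers looked up were detected, with a summed level of 11800 to 12594 CPM (reads of a gene relative to all counted reads) in UNX, 18985 to 19939 in CO-CM and 21429 to 23239 in PH-CM. The sum of 8 fibroblast markers was 197 to 249 CPM in UNX, 266 to 318 in CO-CM and 249 to 335 in PH-CM. It was higher in CO-CM than in UNX. PH-CM and UNX barely overlapped, the lowest PH-CM library being at 248.8 and the highest UNX library at 249.1. By the thresholds given below, 4 of the 6 tested were higher than UNX in PH-CM and 2 in CO-CM, with 0 lower. Of all genes 31.3% and 28% were called higher. Of the T and NK cell markers, Cd3e, Cd3d and Cd8a had 2 reads each over all 9 libraries and Nkg7 had none, while Cd4, which can also be expressed by macrophages, rose. Its level was 1.39 to 3.31 CPM in UNX, 6.25 to 7.84 in CO-CM and 13.2 to 17.1 in PH-CM. The sum of the endothelial markers Kdr and Cdh5, nearly all of it Kdr, was 33.1 to 43.9 CPM in UNX, 16.3 to 20.5 in CO-CM and 54.9 to 64.3 in PH-CM, with no overlap. The 6 neutrophil markers summed to 1.85 to 2.82 CPM in UNX, 3.13 to 4.48 in CO-CM and 2.58 to 3.92 in PH-CM, with Ly6g at 0 reads. The mast cell and basophil markers Cpa3 and Mcpt8 summed to at most 0.185 CPM in UNX, 0.0876 in CO-CM and 0.659 in PH-CM, where they began at 0.458. Markers of B cells (at most 0.149 CPM) and dendritic cells (at most 0.628 CPM) were near 0. The part of these markers in the receptor results was not tested. In RNA from a whole culture, fewer cells of a type and less RNA per cell cannot be told apart.

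The sequences just upstream of the start sites are shown for 5 of the genes. Il4ra, Il6st and Ifngr1 are the 3 that passed the thresholds given below between the 2 media in the main fit. Il6ra and Ifngr2 are genes that rose under both media and hold a match to one of the motifs searched. The sequences come from the RefSeq promoter table, build GRCm38.p6, where 7 of the 10 genes had an entry. Il10ra, Il10rb and Il17ra are named only, although Il10ra also passed between the media in some other fits. Each sequence reads 5′ to 3′ on the gene's own strand, capitals mark a motif match, and Il4ra is given only as far as its first annotated exon.
Il4ra, chr7:125552021-125552119, plus strand: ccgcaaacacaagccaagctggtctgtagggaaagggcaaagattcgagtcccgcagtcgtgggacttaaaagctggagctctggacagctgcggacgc
Il6st, chr13:112463820-112464069, plus strand: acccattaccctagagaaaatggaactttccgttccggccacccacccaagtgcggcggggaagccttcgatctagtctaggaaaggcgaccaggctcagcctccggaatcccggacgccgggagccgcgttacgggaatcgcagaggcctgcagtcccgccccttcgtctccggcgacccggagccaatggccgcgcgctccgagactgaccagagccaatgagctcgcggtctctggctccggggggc
Ifngr1, chr10:19591699-19591948, plus strand: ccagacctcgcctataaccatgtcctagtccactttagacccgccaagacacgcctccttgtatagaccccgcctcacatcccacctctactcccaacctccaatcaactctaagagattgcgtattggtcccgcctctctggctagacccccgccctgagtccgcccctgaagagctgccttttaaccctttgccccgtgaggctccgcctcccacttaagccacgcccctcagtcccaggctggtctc
Il6ra, chr3:89913197-89913446, minus strand: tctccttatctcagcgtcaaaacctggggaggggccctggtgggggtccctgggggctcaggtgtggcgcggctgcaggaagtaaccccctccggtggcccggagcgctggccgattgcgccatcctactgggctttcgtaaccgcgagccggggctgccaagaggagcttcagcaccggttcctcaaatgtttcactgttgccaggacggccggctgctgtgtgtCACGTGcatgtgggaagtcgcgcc
Ifngr2, chr16:91546809-91547058, plus strand: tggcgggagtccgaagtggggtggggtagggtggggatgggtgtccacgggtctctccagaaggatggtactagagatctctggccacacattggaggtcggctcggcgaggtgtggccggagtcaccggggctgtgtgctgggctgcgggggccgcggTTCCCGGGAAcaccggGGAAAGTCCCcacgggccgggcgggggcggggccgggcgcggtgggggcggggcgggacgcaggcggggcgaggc

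The 6 motifs were searched on both strands of the 250 bases before the RefSeq start site. For Il4ra this window ends at chr7:125552270, past the gene's annotated start at 125552120. Its search and its CG count below therefore cover bases inside the annotated gene, beyond the 99 bases printed. The STAT motif TTCNNNGAA was in 7.02% of all 32851 promoters of that length, the STAT6 form TTCNNNNGAA in 5.85%, the hypoxia response core ACGTG in 16.6%, the AP-1 motif TGANTCA in 6.75%, the NF-kB motif GGGNNNTTCC in 4.65% and the interferon response core GAAANNGAAA in 2.98%. In Il6ra the 6 capitals hold ACGTG on both strands, the 2 matches overlapping, with the last base 19 bases before the start site. In Ifngr2 the first run of capitals matches the STAT6 form and the second, on the opposite strand, the NF-kB motif. None of the 6 was found in this window of Il4ra, Il13ra1, Il6st, Il2rg or Ifngr1. A match is a description of the letters, and no match says only that these letters are not in this window. The windows also differed in base composition: CG dinucleotides numbered 26 in Il6st, 25 in Ifngr2, 21 in Il13ra1, 18 in Il6ra, 17 in Il4ra, 11 in Ifngr1 and 3 in Il2rg, against a median of 6 over all promoters.

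By transcript level per length, the untreated macrophages already held every chain. Levels in RPKM, the authors' reads per kilobase of exon scaled to the reads of the library, allow genes to be set beside each other as far as the exon lengths hold. For Ifngr2 the authors' values imply 3313 bases, against 3767 in the GENCODE M21 annotation. Its level, its place in the orders below and the size of the Ifngr1 to Ifngr2 ratio depend on that length. Il2rg, Il4ra, Il10rb and Il6ra share exon bases with other annotated genes, and reads there may be uncounted. Their levels, places and the sizes of their ratios are uncertain to that extent. In UNX the order was Il10rb (44.0 ± 3.22 RPKM, SD, n = 3), Ifngr1 (39.9 ± 0.899), Ifngr2 (34.0 ± 0.470), Il4ra (18.2 ± 0.864), Il6st (15.5 ± 0.331), Il10ra (13.9 ± 2.26), Il2rg (13.3 ± 1.30), Il6ra (7.93 ± 0.594), Il17ra (5.44 ± 1.06) and Il13ra1 (2.17 ± 0.348). The libraries of Il10rb and Ifngr1 overlapped, as did those of Il6st and Il10ra and those of Il10ra and Il2rg, and the other neighbours in that order were separate.

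Under PH-CM the order was different. Ifngr1 led at 70.1 ± 6.24 RPKM, followed by Ifngr2 (55.4 ± 0.434), Il10rb (53.3 ± 1.43), Il4ra (50.3 ± 5.55) and Il10ra (42.6 ± 2.42). Then came Il6ra (15.0 ± 0.493), Il2rg (14.5 ± 1.48), Il6st (12.7 ± 0.676), Il17ra (8.19 ± 0.978) and Il13ra1 (4.35 ± 0.741). The libraries of Il10rb and Il4ra overlapped, and so did those of Il6ra and Il2rg and of Il2rg and Il6st. Il6st, which in UNX stood above Il6ra, was now below this partner in RPKM, though not in CPM (means of 142 for Il6st and 131 for Il6ra). Under CO-CM Il10rb (52.2 ± 1.07 RPKM) and Ifngr2 (50.9 ± 1.25) overlapped at the top, and Ifngr1 followed at 42.6 ± 5.06 RPKM.

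**Figure D1:**
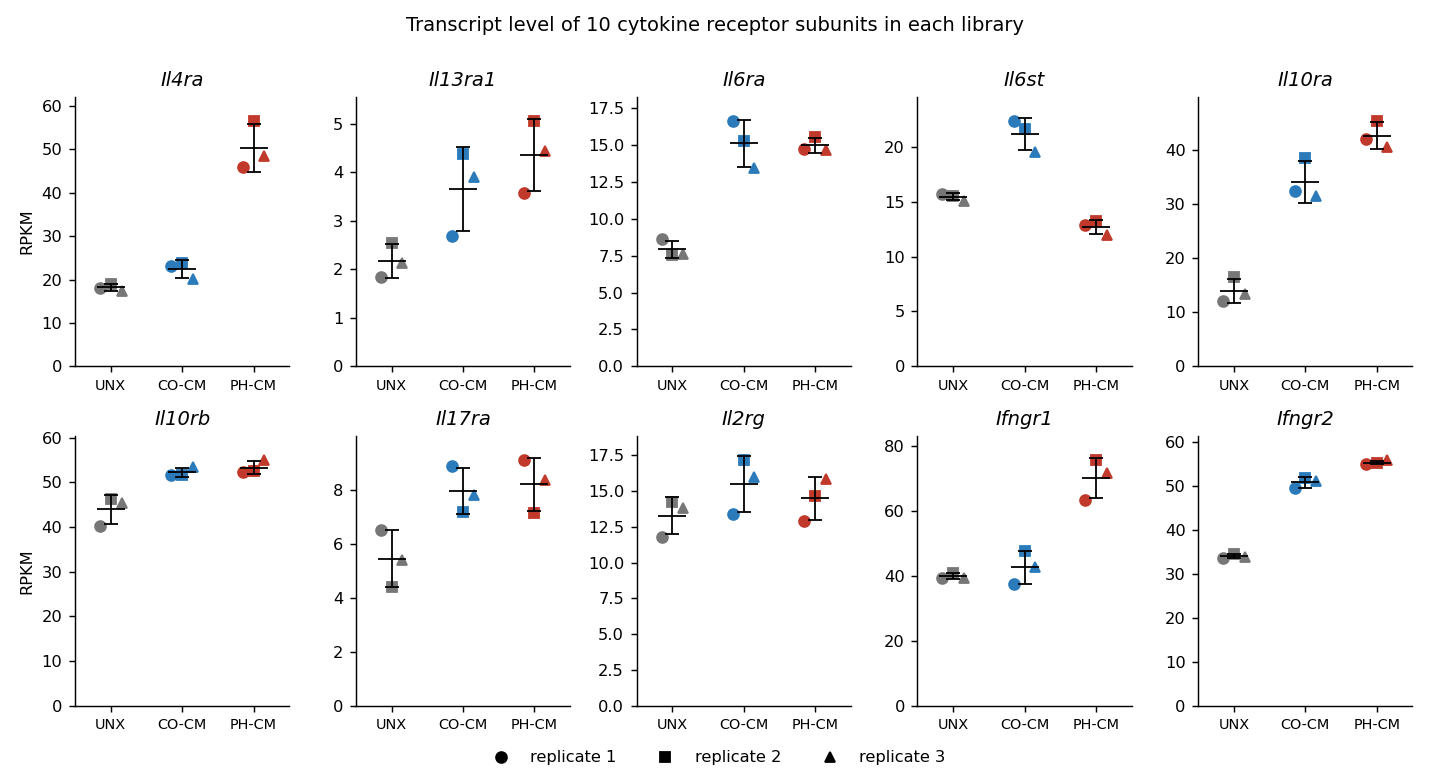
Level of each of the 10 receptor subunits in RPKM (y axis, starting at 0, scaled separately for each gene) in the 3 untreated (UNX), 3 CO-CM and 3 PH-CM libraries (x axis). Points are libraries, with the symbol giving the replicate number, and the bars show the mean and SD. Il4ra and Ifngr1 stand apart in PH-CM, Il6st is highest in CO-CM and lowest in PH-CM, and Il6ra, Il10ra and Ifngr2 are higher in both media than in UNX.

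Each gene was then tested in the 3 comparisons with edgeR's quasi-likelihood test, and a gene was called changed when its FDR, the Benjamini-Hochberg adjusted p over all 11950 genes, did not exceed 0.05 and its level differed by 1.2-fold or more. PH-CM against UNX called 8 of the 10 receptor genes higher and none lower, where 63% of all genes tested were called, 31.3% higher and 31.7% lower. CO-CM against UNX called 9 of 10 higher, where 57% of all genes were called, 28% higher and 28.9% lower. PH-CM against CO-CM called 2 higher and 1 lower, 3 of 10, beside 27.1% of all genes (12.2% higher and 15% lower). Il10ra was added with the replicate number as a block, giving 3 higher and 1 lower beside 3632 genes in all. The libraries of the 2 groups did not overlap for 9 receptor genes in PH-CM against UNX, 8 in CO-CM against UNX and 5 in PH-CM against CO-CM, beside 77.7%, 72% and 50.2% of all genes. The median log2 fold change of the 10 genes was 0.82, 0.57 and 0.07 in these comparisons, and that of all genes was 0.01, 0.00 and -0.01. The share of all counted reads that fell on the 10 genes was 0.0868% to 0.0899% in UNX, 0.118% to 0.127% in CO-CM and 0.138% to 0.149% in PH-CM. The comparisons with UNX share the same 3 control libraries, so they are not independent of each other.

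**Figure D2:**
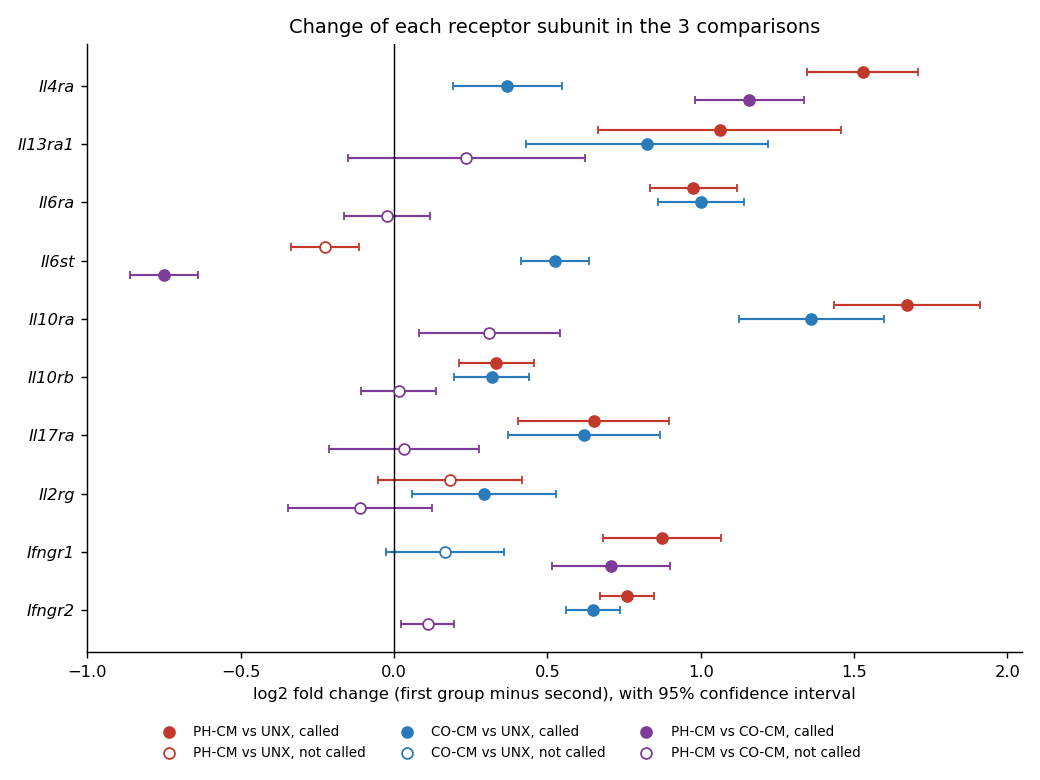
Log2 fold change (x axis, first group minus second) of each receptor subunit (y axis) in PH-CM against UNX (red), CO-CM against UNX (blue) and PH-CM against CO-CM (purple). Bars are 95% confidence intervals, and filled points passed both thresholds. In the purple comparison Il4ra (1.16) and Ifngr1 (0.71) lie above 0, Il6st (-0.75) lies below it, and the other 7 points are open.

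IL-4 and IL-13 are read by Il4ra, which pairs with Il2rg in the type I receptor for IL-4 and with Il13ra1 in the type II receptor for either cytokine. Il4ra (chr7:125552120-125579474, plus strand, GRCm38) had 104, 112 and 102 CPM in the UNX libraries, 139, 148 and 123 in CO-CM, and 274, 346 and 296 in PH-CM. The groups did not overlap, and every PH-CM library was well above the highest CO-CM library. The log2 fold change was 1.53 ± 0.092 (SE) in PH-CM against UNX, a 2.88-fold difference with an edgeR FDR of 1.48e-07. In CO-CM against UNX it was 0.37 ± 0.091 (FDR 0.0042). PH-CM was 2.23-fold above CO-CM, at 1.16 ± 0.091 on the log2 scale (FDR 7.01e-06).

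Il13ra1 (chrX:36112110-36171259, plus strand), the chain that turns Il4ra into an IL-13 receptor, was the lowest of the 10. It had 6.53, 9.20 and 7.74 CPM in UNX, 9.96, 16.8 and 14.9 in CO-CM, and 13.2, 19.1 and 16.7 in PH-CM. Replicate 1 was the lowest library of each group, and both media were separate from UNX but not from each other. It rose 2.09-fold in PH-CM (log2 1.06 ± 0.20, edgeR FDR 0.00071) and 1.77-fold in CO-CM (0.83 ± 0.20, FDR 0.0040). Between the media the difference was 0.24, with a 95% confidence interval from -0.15 to 0.62 (FDR 0.38). Within replicate numbers it was 0.41, 0.19 and 0.17, and with the number as a block 0.25 at an FDR of 0.013, under 1.2-fold and not called.

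Il2rg (chrX:101264378-101268255, minus strand), the common gamma chain of the receptors for IL-2, IL-4, IL-7, IL-9, IL-15 and IL-21, changed little. It had 26.9, 33.2 and 32.3 CPM in UNX, 31.9, 42.4 and 39.2 in CO-CM, and 30.7, 35.8 and 38.6 in PH-CM, and all 3 groups overlapped. In CO-CM against UNX the log2 fold change of 0.29 ± 0.12 passed at an edgeR FDR of 0.0496. It did not pass without any 1 of UNX replicates 1, 2 or 3, CO-CM replicates 2 or 3 or PH-CM replicate 2, and without UNX replicate 1 it was 0.19 (FDR 0.20). In PH-CM against UNX it was 0.18, with an interval from -0.05 to 0.42 (FDR 0.19), and in PH-CM against CO-CM -0.11, from -0.35 to 0.12.

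IL-6 binds Il6ra, and the complex then engages Il6st (gp130), the signal transducer shared with LIF, oncostatin M, IL-11 and IL-27. Il6ra (chr3:89864059-89913196, minus strand) had 71.1, 63.9 and 64.4 CPM in UNX, 143, 137 and 119 in CO-CM, and 127, 137 and 129 in PH-CM. It was about equally high in both media, with every treated library above every untreated one. The log2 fold change was 0.98 ± 0.072 in PH-CM against UNX (edgeR FDR 6.56e-07) and 1.00 ± 0.072 in CO-CM against UNX (FDR 8.09e-07). Between the media it was -0.02, with an interval from -0.16 to 0.12 (FDR 0.82).

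Il6st (chr13:112464070-112510086, plus strand) stood on opposite sides of UNX in the 2 media. It had 167, 169 and 164 CPM in UNX, 247, 249 and 222 in CO-CM, and 142, 150 and 135 in PH-CM. No library of one group overlapped another group, CO-CM being the highest and PH-CM the lowest. CO-CM was 1.44-fold above UNX (log2 0.52 ± 0.057, edgeR FDR 1.47e-05). PH-CM against UNX gave -0.23 ± 0.057 at an FDR of 0.0041, which passed the FDR threshold but not the 1.2-fold one, so it was not called. Scaling to the library size alone made it -0.28, the test without a filter on low counts -0.27 and the filterByExpr filter -0.26, each past the fold threshold. PH-CM against CO-CM fell by 0.75 on the log2 scale, with an interval from -0.86 to -0.64 (FDR 5.3e-06), and was lower in each of the 3 PH-CM libraries.

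IL-10 binds Il10ra, the chain that gives the receptor its specificity, and the complex recruits Il10rb, which also serves IL-22 and the lambda interferons. Il10ra (chr9:45253837-45269149, minus strand) had the largest rise of the 10 under both media. It had 40.2, 56.1 and 45.5 CPM in UNX, 113, 139 and 112 in CO-CM, and 146, 162 and 144 in PH-CM, with no overlap between groups. It was 3.18-fold higher in PH-CM (log2 1.67 ± 0.12, edgeR FDR 5.72e-07) and 2.57-fold higher in CO-CM (1.36 ± 0.12, FDR 3.53e-06) than in UNX.

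Between the media Il10ra differed by 0.31 ± 0.12, and the FDR of 0.060 missed the threshold. With the replicate number as a block, the difference was 0.32 at an FDR of 0.00051 and was called. It was also called without UNX replicate 1 (0.32, FDR 0.028), without UNX replicate 2 (0.32, FDR 0.021) and without CO-CM replicate 2 (0.42, FDR 0.025).

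Il10rb (chr16:91406164-91425834, plus strand) was high in all libraries and rose little. It had 147, 173 and 169 CPM in UNX, 196, 203 and 209 in CO-CM, and 198, 204 and 213 in PH-CM. The media were separate from UNX and overlapped each other. The log2 fold change was 0.33 ± 0.063 in PH-CM (edgeR FDR 0.00065) and 0.32 ± 0.063 in CO-CM (FDR 0.0010). Without UNX replicate 1, its lowest library, these were 0.25 and 0.23, under 1.2-fold and no longer called. Between the media it was 0.02, with an interval from -0.11 to 0.14.

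Il17ra (chr6:120463247-120487559, plus strand) is the chain shared by the IL-17 receptors. It had 54.0, 37.3 and 45.8 CPM in UNX, 76.6, 64.3 and 69.3 in CO-CM, and 78.2, 63.2 and 73.6 in PH-CM. Replicate 1 was the highest library of each group and replicate 2 the lowest, and the media lay above UNX and overlapped each other. It rose by 0.65 ± 0.13 on the log2 scale in PH-CM (edgeR FDR 0.00081) and by 0.62 ± 0.13 in CO-CM (FDR 0.0013). Between the media it was 0.03, with an interval from -0.21 to 0.28.

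Interferon gamma is bound by Ifngr1, and Ifngr2 joins the complex to bring in JAK2. Ifngr1 (chr10:19591949-19610229, plus strand) had 107, 114 and 110 CPM in UNX, 106, 140 and 125 in CO-CM, and 179, 219.5 and 207 in PH-CM. CO-CM overlapped UNX, and all 3 PH-CM libraries were above both. In PH-CM it was 1.83-fold above UNX (log2 0.87 ± 0.098, edgeR FDR 1.57e-05) and 1.63-fold above CO-CM (0.71 ± 0.098, FDR 0.00030). CO-CM against UNX gave 0.17, with an interval from -0.02 to 0.36 (FDR 0.15). Without CO-CM replicate 1, the lowest of the CO-CM libraries, that difference was 0.27 (FDR 0.017) and was called.

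Ifngr2 (chr16:91547072-91565623, plus strand) rose to nearly the same level in either medium. It had 107, 112 and 110 CPM in UNX, 164, 178 and 174 in CO-CM, and 181, 187 and 188 in PH-CM. The 3 groups were separate, with little spread inside each. The log2 fold change was 0.76 ± 0.045 in PH-CM (edgeR FDR 1.3e-07) and 0.65 ± 0.045 in CO-CM (FDR 5.95e-07). PH-CM against CO-CM gave 0.11 ± 0.045, an FDR of 0.080 and a fold of 1.08, so it was not called.

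Since these chains work in pairs, the RPKM ratio of the partners was taken within each library and compared over the 3 groups with an exact permutation test over the 1680 arrangements of the 9 libraries, adjusted over 5 ratios. A transcript ratio is not a ratio of proteins at the surface. Il6ra to Il6st was 0.548, 0.486 and 0.505 in UNX, 0.744, 0.705 and 0.689 in CO-CM, and 1.145, 1.17 and 1.23 in PH-CM. The groups were separate, and only in the PH-CM libraries did the RPKM of Il6ra exceed that of Il6st. This crossing rests on the exon lengths used, 8642 bases for Il6ra and 11099 for Il6st. In CPM Il6st stayed above Il6ra in PH-CM, at means of 142 and 131. The comparison of the ratio between groups does not depend on the lengths. The exact permutation p was 0.0036, the smallest that this design can give, with an adjusted p of 0.018.

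Il10ra to Il10rb was 0.298, 0.354 and 0.293 in UNX, 0.625, 0.744 and 0.587 in CO-CM, and 0.803, 0.861 and 0.738 in PH-CM (exact permutation p = 0.0071, adjusted 0.018). Both media were above UNX, and they overlapped each other. Il4ra to Il2rg was 1.54, 1.34 and 1.25 in UNX, 1.73, 1.39 and 1.25 in CO-CM, and 3.55, 3.85 and 3.05 in PH-CM (exact permutation p = 0.025, adjusted 0.025). Here PH-CM alone stood apart.

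Il4ra to Il13ra1 was 9.86, 7.52 and 8.14 in UNX, 8.62, 5.45 and 5.12 in CO-CM, and 12.8, 11.2 and 10.9 in PH-CM (exact permutation p = 0.021, adjusted 0.025). PH-CM was the highest, and CO-CM overlapped UNX. This ratio lost its call without UNX replicate 2 (adjusted exact p = 0.054) or 3 (0.075), or without PH-CM replicate 1 (0.086), 2 (0.079) or 3 (0.068). Ifngr1 to Ifngr2 was 1.17, 1.18 and 1.16 in UNX, 0.756, 0.916 and 0.835 in CO-CM, and 1.15, 1.37 and 1.28 in PH-CM (exact permutation p = 0.014, adjusted 0.024). CO-CM was below both other groups, which overlapped. When libraries were exchanged only within a replicate number, the adjusted exact p of the Il4ra to Il2rg and Ifngr1 to Ifngr2 ratios became 0.056, and the smallest raw p that this test can give is 0.028.

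**Figure D3:**
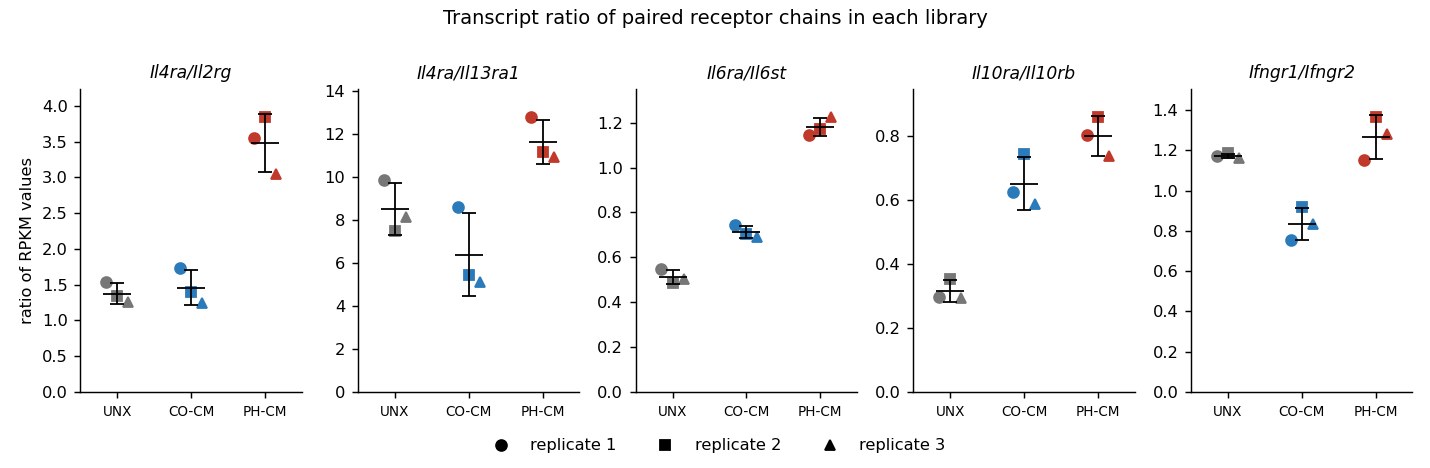
Ratio of the RPKM values of paired receptor chains (y axis, starting at 0, scaled separately for each ratio) in each UNX, CO-CM and PH-CM library (x axis). Points are libraries, with the symbol giving the replicate number, and bars are the mean and SD. Il6ra to Il6st steps up from 0.513 in UNX to 0.713 in CO-CM and 1.18 in PH-CM, Il4ra to Il2rg is apart only in PH-CM, and Ifngr1 to Ifngr2 is lowest in CO-CM.

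Over the 9 libraries the members fell into recognisable courses, described here by Pearson's r of log2 CPM, where all points share the 3 groups and the same libraries. The genes most like Il4ra were Mapk14 (r = 0.997), Pxn and Pitpnc1, and those most like Ifngr1 were Tnfaip8 (0.989), Ninj1 and AB124611. Il6st was followed most closely by Etv3 (0.985), Klhl6 and AU020206, and 33 genes exceeded 0.95 with it. For Il10ra the 3 were Ip6k1 (0.999), Zfyve1 and Trim3, and for Ifngr2 they were Neurl3 (0.998), Syf2 and Gpr108. Here 1009 and 1050 genes exceeded 0.95, so these courses were common. Il6ra was most like Mypopos (0.993), Mbd6 and Zfp943, and Il10rb like Crat (0.994), Aph1c and Ypel5. The courses of Il13ra1 (Sirt6, 0.985, then Uba7 and Mcl1) and Il17ra (Skil, 0.976, then Zfp607a and Sall2) also carried their replicate pattern. Il2rg had 1 gene above 0.95 (Cope, 0.951), before Tnfsf12 and Usp11.

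Among 36 other cytokine receptor subunits, 17 were tested. In PH-CM against UNX 8 rose and 3 fell, in CO-CM against UNX 10 rose and 3 fell, and in PH-CM against CO-CM 5 were higher and 6 lower. Of all genes tested, 63%, 57% and 27.1% were called in these comparisons. The counts of the lists that follow stand beside the same shares. Csf3r, the G-CSF receptor, rose by 3.16 ± 0.18 on the log2 scale in CO-CM and by 2.18 ± 0.18 in PH-CM against UNX. The neutrophil marker sum given above was higher in CO-CM than in UNX but overlapped between the media. The 1 neutrophil marker tested was called higher than UNX in both media, by 1.39 in CO-CM and 1.37 in PH-CM. Between the media it differed by -0.02 and was not called. The part of these markers in the Csf3r values was not tested. Csf2rb, the beta chain of the receptors for GM-CSF, IL-3 and IL-5, rose by 1.79 ± 0.13 and 2.45 ± 0.13. Its near-identical neighbour Csf2rb2 rose by 1.58 and 2.10, and reads can fit both, so both values are uncertain.

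The chains that work with gp130 differed among themselves. Osmr, the oncostatin M receptor, was higher in PH-CM than in CO-CM (1.14 ± 0.19, edgeR FDR 0.00093), at means of 3.56 and 1.62 CPM. Il11ra1 was lower in PH-CM than in CO-CM (-1.15 ± 0.17, FDR 0.00052), at 20.9 and 46.4 CPM. Il27ra was scarce, at 0.119 to 0.514 CPM in PH-CM and 0.672 to 1.70 in CO-CM, and was called lower in PH-CM (-1.92). Lifr was called lower than UNX in both media, at -0.75 in PH-CM and -0.44 in CO-CM.

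The chains that work with the common gamma chain also differed. Il7r rose by 1.49 in PH-CM and 1.34 in CO-CM on the log2 scale, and Il15ra by 0.72 and 0.40. Il21r fell in CO-CM (-1.14) and was 1.35 ± 0.076 higher in PH-CM than in CO-CM, at 36.8 against 14.5 CPM. Il2rb, the chain that IL-15 needs beside Il15ra and Il2rg for signaling, had 4 reads over all libraries and Il2ra had 30. Il12rb2 fell by 1.91 in PH-CM and by 0.49 in CO-CM, but shares 1519 exon bases with Serbp1 on the opposite strand, so its value is uncertain, the counting having used no strand option.

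Ligands of these receptors were mostly scarce in the macrophages themselves. Of 20 ligand genes 5 were tested. Lif, at 1.38 to 2.20 CPM in PH-CM and below 1 CPM elsewhere, could be tested only because of the PH-CM libraries. Of the other 4, 4 rose in PH-CM against UNX, 1 rose in CO-CM against UNX and 2 were higher in PH-CM than in CO-CM. With Lif these counts were 5, 1 (4 with the replicate block) and 3. The CO-CM against UNX count moved in other fits too. It was 3 with upper-quartile scaling or edgeR's exact test and 2 with DESeq2. With no filter 2 rose and 1 fell, and with filterByExpr 1 rose and 1 fell. Between the media 5 were higher in PH-CM with no filter. Osm, the gp130 ligand oncostatin M, was 1.62 ± 0.20 higher in PH-CM than in CO-CM on the log2 scale, at 36.3 against 11.8 CPM. The mean of Lif was 1.76 against 0.658 CPM, and Il4 rose by 1.62 in CO-CM and 1.38 in PH-CM against UNX from 0.974 CPM. Il15 was higher in PH-CM than in CO-CM by 0.74 (FDR 0.022), which was not called without CO-CM replicate 1 (FDR 0.060) or 3 (0.063), or without PH-CM replicate 2 (0.086) or 3 (0.062).

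Below the filter, Il6 had 39 reads over all 9 libraries, Il13 had 12 and Il10 had 387. Il10 was at 0.678 to 1.197 CPM in UNX, 0.292 to 0.359 in CO-CM and 0.238 to 0.664 in PH-CM. Ifng, Il17a, Il17f and Il21 had 0 reads, which allows up to 0.0048 CPM (3 reads over the 9 libraries, counting error only). The calf fibroblast proteins present in the media are not measured in these libraries.

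Among 10 JAK and STAT genes, all tested, 6 rose and none fell in PH-CM against UNX, 4 rose and 2 fell in CO-CM against UNX, and 3 were higher and none lower in PH-CM than in CO-CM. In either direction these counts were near the shares of all genes called, 63%, 57% and 27.1%. Stat3, the factor downstream of gp130 and the IL-10 receptor, rose by 1.13 ± 0.061 in PH-CM and 0.60 ± 0.061 in CO-CM on the log2 scale, and was 0.54 higher in PH-CM than in CO-CM (edgeR FDR 8.02e-05). Its mean level was 116 CPM in UNX, 175 in CO-CM and 253 in PH-CM. Stat6, downstream of Il4ra, differed by at most 0.11 and was not called. Jak1 rose by 0.38 and 0.30, Jak2 by 0.41 and 0.31 and Tyk2 by 0.44 and 0.51 in PH-CM and CO-CM, and Jak3, which binds the common gamma chain, by 0.52 in PH-CM, while its difference of 0.25 in CO-CM was not called. The 2 genes that fell in CO-CM against UNX were Stat4, by 2.09 ± 0.20, and Stat2, by 0.42 ± 0.046. Stat4 was 2.60 ± 0.20 higher in PH-CM than in CO-CM, at 3.18 CPM in UNX, 0.747 in CO-CM and 4.53 in PH-CM. Its rise over UNX, 0.51, was not called without UNX replicate 1 (FDR 0.071) or PH-CM replicate 3 (FDR 0.062).

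Of 14 negative regulators 13 were tested, with 4 higher and 1 lower in PH-CM against UNX, 3 and 4 in CO-CM against UNX, and 4 and 2 in PH-CM against CO-CM. Socs3, which binds gp130 and limits IL-6 signaling, rose by 2.46 ± 0.17 in PH-CM and 1.46 ± 0.17 in CO-CM, from 3.46 CPM in UNX to 19.1 and 9.49. Socs1, which limits interferon gamma and IL-4 signaling, fell by 1.52 ± 0.31 in CO-CM and by 0.91 ± 0.30 in PH-CM (FDR 0.017). The PH-CM call was lost without UNX replicate 2 (FDR 0.055) or PH-CM replicate 2 (FDR 0.066). Ptpn1 rose by 0.87 in CO-CM and 0.52 in PH-CM. Socs2 was called higher in PH-CM than in CO-CM (0.70, FDR 0.038), but not without CO-CM replicate 1 (FDR 0.11) or 2 (0.092), or without PH-CM replicate 1 (0.13) or 3 (0.060).

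Among 6 genes for receptor shedding and IL-17 adaptors, Adam17, the protease that sheds Il6ra, rose by 0.58 ± 0.060 in CO-CM and by 0.28 ± 0.060 in PH-CM and was 0.30 lower in PH-CM than in CO-CM. The calls of 0.28 and 0.30 lie near the fold threshold. The first was lost without UNX replicate 3 (0.23) and the second without CO-CM replicate 2 (-0.24). Traf3ip2, which encodes Act1, rose by 0.29 in PH-CM (FDR 0.014), a call lost without UNX replicate 2 (0.26, FDR 0.0501) or PH-CM replicate 2 (0.26, FDR 0.047, under 1.2-fold). In the list as a whole 2 rose and 1 fell in PH-CM against UNX (0 and 1 with library size alone, with no filter and with filterByExpr, where Adam17 was 0.22 to 0.24 and Traf3ip2 0.23 to 0.25), 1 rose in CO-CM against UNX and 2 were lower in PH-CM than in CO-CM. Without CO-CM replicate 2 or PH-CM replicate 1 the last count was 1. Tnfaip3, an inhibitor of NF-kB, was the gene that fell in PH-CM, by 0.41.

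Genes known to respond to these receptors showed no single direction. Of 11 known STAT3 targets of IL-6 and IL-10, 8 rose and 2 fell in each of the 3 comparisons, and the list's median log2 fold change was 1.44, 0.71 and 0.86 against 0.01, 0.00 and -0.01 over all genes. Nfil3 rose by 2.32 in PH-CM against UNX and 0.67 in CO-CM, Bcl3 by 2.20 and 1.31, and Pim1 by 1.73 and 0.71. Nfil3 was 1.65 ± 0.19 higher in PH-CM than in CO-CM and Cebpd 1.26 ± 0.094. The Pim1 difference between the media, 1.02 (FDR 0.015), was not called without PH-CM replicate 3 (FDR 0.057). Il1rn, the IL-1 receptor antagonist, fell by 1.38 in CO-CM and by 0.52 in PH-CM.

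Of 17 known STAT6 targets of IL-4 and IL-13, 9 were tested, and 2 rose and 7 fell in PH-CM against UNX, where Il4ra itself was at its highest. Mgl2 and Ch25h, 2 of the 7, were above 1 CPM in UNX alone and could be tested only because of it, and without them 2 rose and 5 fell. In CO-CM against UNX 2 rose and 4 fell (2 and 2 without Mgl2 and Ch25h). With all 9, without UNX replicate 2 this became 1 and 2, and without UNX replicate 3 also 1 and 2. In PH-CM against CO-CM 3 were higher and 2 lower. The lectin genes Mgl2 and Clec10a, close paralogs whose counts are uncertain where reads fit both, fell by 3.95 and 1.35 in PH-CM and by 3.40 and 1.41 in CO-CM, and Mrc1, the mannose receptor, fell by 0.67 in PH-CM and fell by 2.37 in CO-CM. Tgm2, a transglutaminase, rose by 2.60 ± 0.096 in PH-CM and was 2.31 ± 0.095 above CO-CM. Egr2 fell by 2.20 in PH-CM against UNX. Flt1 rose by 1.36 ± 0.16 in CO-CM against UNX and was 2.51 ± 0.17 lower in PH-CM than in CO-CM. Ch25h fell by 4.07 in CO-CM and by 4.34 in PH-CM, from 2.17 CPM in UNX.

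Arg1, which encodes arginase, spread widely within groups, at 3.84 to 20.7 CPM in UNX, 0.905 to 16.2 in CO-CM and 31.5 to 119 in PH-CM. It was called higher in PH-CM than in UNX (2.65 ± 0.80, edgeR FDR 0.012) and in CO-CM (3.143 ± 0.83, FDR 0.013). It was 3.40 without UNX replicate 2, and the call was lost without PH-CM replicate 2 (2.08, FDR 0.0501). Against CO-CM it was 4.12 without CO-CM replicate 2, and was lost without CO-CM replicate 3 (3.07, FDR 0.0505) or PH-CM replicate 2 (2.56, FDR 0.0505).

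Of 20 known targets of interferon gamma, 15 were tested, with 6 higher and 5 lower in PH-CM against UNX, 4 and 5 in CO-CM against UNX, and 3 and 5 in PH-CM against CO-CM. Cd40, a costimulatory receptor, fell by 3.19 ± 0.17 in PH-CM and 1.56 ± 0.15 in CO-CM, from 11.2 CPM to 1.23 and 3.80. Cd274, which encodes PD-L1, rose by 1.52 and 1.75, and Gbp7 rose by 0.94 in PH-CM and was 1.36 above CO-CM. The chemokine Cxcl10 fell by 1.64 in PH-CM and fell by 2.80 in CO-CM from 2.81 CPM, and without PH-CM replicate 3 the PH-CM value was -2.45.

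Of 7 known IL-17 targets 3 were tested. Cxcl1, a neutrophil chemokine above 1 CPM in PH-CM alone (mean 2.32 CPM), could be tested only because of the PH-CM libraries, and the other 2 were called higher in each comparison. Zc3h12a, an RNase that limits inflammatory transcripts, rose by 1.74 ± 0.091 in PH-CM and 1.33 ± 0.090 in CO-CM, and Nfkbiz by 1.36 and 0.91. The Nfkbiz difference between the media, 0.45 (FDR 0.019), was not called without CO-CM replicate 3 (FDR 0.076) or PH-CM replicate 2 (FDR 0.078). Without PH-CM replicate 2 the count of this list between the media was 1. That of the ligands was 1 without PH-CM replicate 2 or 3.

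**Figure D4:**
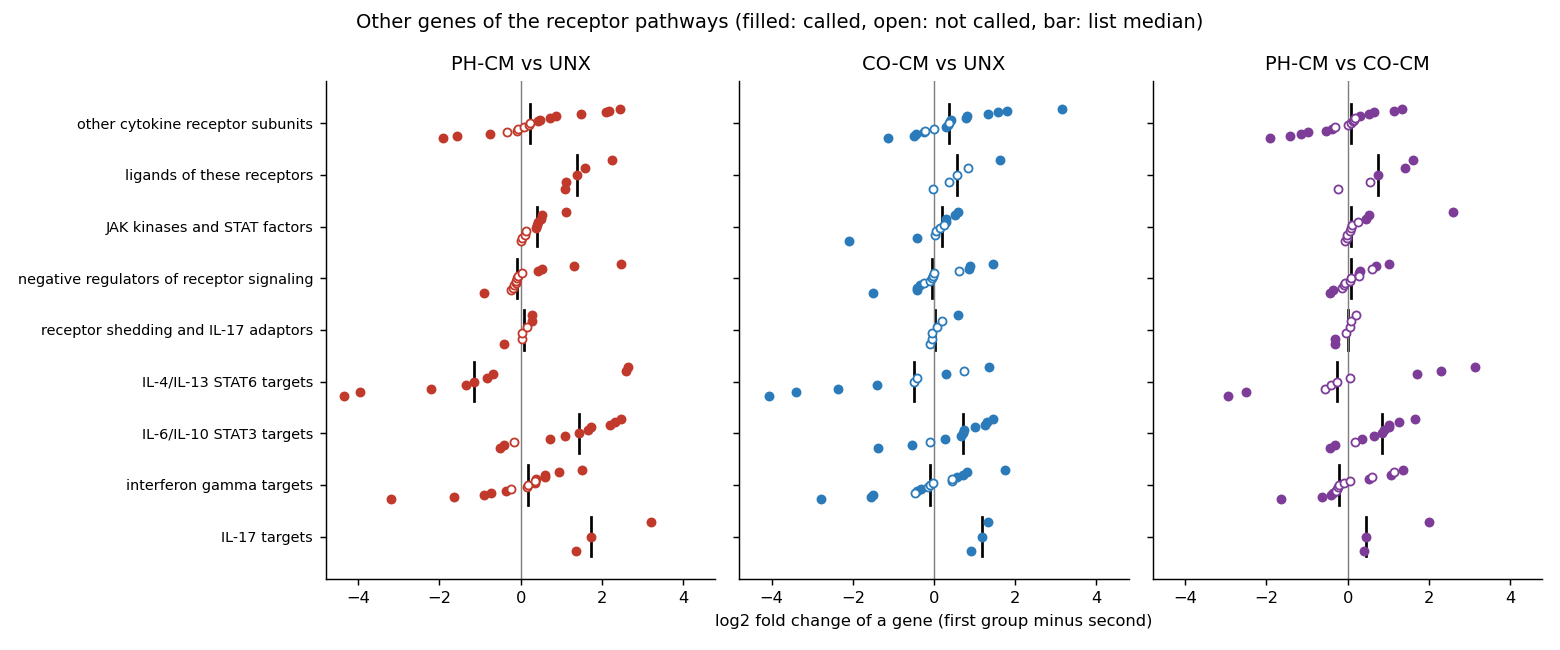
Log2 fold change (x axis) of each tested gene of 9 lists of pathway genes (y axis) in the 3 comparisons. Filled points passed both thresholds, open points did not, and the black bar is the median of the list. The STAT3 targets lie mainly right of 0 in all 3 comparisons (8 higher, 2 lower), while the STAT6 targets lie mainly left of 0 in PH-CM against UNX (2 higher, 7 lower, of which 2 were testable only through UNX).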

How the data were processed

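RNA from 9 BMDM cultures was sequenced as paired reads. After trimming in AfterQC and alignment to GRCm38 in STAR, the authors deposited raw read counts per gene from featureCounts 1.6.2, and RPKM values per gene. The counting options given in the study's methods include none for strand or read pairs, so by that tool's defaults strand was ignored and mates were counted singly. Of counts under 20, 81.4% to 83.8% were even in each library. The other 3 deposited tables hold the authors' own fold changes, p-values and FDR and were not used.

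From the counts, genes above 1 CPM in at least 3 libraries were kept, libraries were scaled by TMM, and all 3 groups were fitted together with edgeR 4.0.16 (quasi-likelihood test, Benjamini-Hochberg adjustment, FDR of at most 0.05 and fold of at least 1.2) in R 4.3.3. CPM values use the TMM-scaled library size. The 95% intervals are 1.96 SE, an approximation that is somewhat too narrow for 3 libraries per group, and calls rest on the FDR and not on them. The steps were tested on simulated data. The members and gene lists were chosen with earlier results of these data known. Each list was given as a count. In each comparison, named genes were taken from the up to 4 called genes with the largest change, a mean of at least 1 CPM and groups without overlap. Partner chains and signaling genes of a member were added. Socs6, Zfp36, Gbp5 and Cd74 also met this rule, and their values are left out. Lifr, Il27ra, Mgl2 and the values of Jak1, Jak2 and Stat6 were named as partners or after their values were seen. 1 gene of the JAK and STAT list is not reported here. Gene positions are from GENCODE M21. Of the genes overlapping a member, none had over 92 reads. Il2rg shares 728 exon bases with Gm20489, Il4ra 571 with Gm44876, Il10rb 569 with Gm21970 and Il6ra 242 with Gm42809. Reads on shared bases may have been counted for neither gene. The low counts therefore do not show that these overlaps were without effect on the members.

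Deviations from the group means correlated at 0.276 to 0.484 between same-numbered libraries and at -0.376 to 0.0423 between others, so the replicate numbers were taken to pair the libraries, and a fit with the number as a block was run. Alternatives were other scalings (RLE, upper-quartile, library size), filters (none, filterByExpr), tests (DESeq2 1.42.0, edgeR's exact test), 2 groups at a time, counts divided by 2, fold thresholds and leaving out each library.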

Additional observations from a re-analysis of the deposited data

How the results depend on the processing

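For the 10 receptor genes in 3 comparisons, 589 of 630 alternative values kept their direction and side of the threshold, 27 lost a call, 14 gained one and none reversed. With a fold of at least 2, the genes called were 2153 in PH-CM against UNX, 1655 in CO-CM against UNX and 612 in PH-CM against CO-CM, and the receptor genes called were 3, 2 and 1. Leaving out 1 library, the genes called ranged from 7222 to 7558, 6440 to 6757 and 2764 to 3376, and the receptor genes called from 7 to 8, 7 to 10 and 3 to 4. With the replicate block they were 7714, 7037 and 3632 genes and 8, 9 and 4 receptor genes. Under it the adjusted exact permutation p over the 3 groups was 0.056 for the Il4ra to Il2rg and for the Ifngr1 to Ifngr2 ratio. This p belongs to the 3 groups together, not to the PH-CM to UNX differences of these log2 ratios, which were 1.34 and 0.11. The Il4ra to Il13ra1 difference ranged from 0.38 to 0.57 when 1 library was left out. The block changed no call of a single receptor gene other than Il10ra between the media, though 4 others then passed the FDR but not the fold: Il13ra1 (FDR 0.013) and Ifngr2 (0.012) between the media, Il2rg in PH-CM against UNX (0.0049) and Ifngr1 in CO-CM against UNX (0.014). Without PH-CM replicate 2 the count of ligand genes called in PH-CM against CO-CM was 1, and in CO-CM against UNX the ligand count was 2 without UNX replicate 1, UNX replicate 3 or CO-CM replicate 1 and 3 without CO-CM replicate 2.

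The Il2rg call in CO-CM against UNX was also lost with library size alone (0.22), no filter (0.25, under 1.2-fold), filterByExpr (0.26) and 2 groups at a time (FDR 0.053). Il10ra was called between the media with DESeq2 (FDR 0.031), the exact test of edgeR (0.034), 2 groups at a time (0.018), no filter (0.0033) and library size alone (0.040). With library size alone Il10rb in CO-CM against UNX was 0.25 and lost its call. The causes were not tested. The limits on precision are 3 libraries per group and media that were pooled over fibroblast populations.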
